A study of Homo sapiens with 4 samples.

Results

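Of the 16658 genes with a deposited FPKM value, 46 genes of mitosis and the spindle were taken by name and matched through their Entrez identifiers, and all 46 were listed. They were measured by RNA-seq in 4 libraries labelled HepG2, a human line of liver tumor cells. Of these, 2 came from wild-type cells (WT) and 2 from a CRISPR/Cas9 knockout of ZCCHC4 (ZCCHC4 KO1), and cells of both genotypes were untreated. Only 1 knockout line was sequenced, so the loss of ZCCHC4 and other properties of that line cannot be told apart. The labels do not say whether the replicates were separate cultures, and the p-values therefore measure the spread between these libraries, which may be technical. ZCCHC4, a methyltransferase of ribosomal RNA, stood at 7.22 and 5.44 FPKM in WT and at 1.08 and 2.29 FPKM in the knockout (log2 fold change -1.48, adjusted p = 0.0448 from limma). That p was 0.0551 with a pseudocount of 0.1, 0.115 without the filter on low values and 0.0514 without ZCCHC4 KO1 replicate 1, and lay under 0.05 under the other alternatives. Of 20 hepatocyte markers, 13 were found in the table and CPS1 alone was above an FPKM of 1 in WT, while AFP was at 0 and 0.05 there and HNF4A at 0.01 and 0. Apart from CPS1, the markers thus do not bear out the liver origin that the label names. The identity of the cells was not tested. The table carries no read totals, so the depth behind each value is unknown.

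Cells enter mitosis when CDK1, bound to cyclin A or cyclin B, escapes inhibition by the kinases WEE1 and PKMYT1 through the CDC25 phosphatases. Aurora and Polo-like kinases then build the spindle, kinetochores attach chromosomes to it, and a checkpoint holds back the anaphase-promoting complex until attachment is complete. Once CDC20 activates that complex, securin is degraded, separase cleaves cohesin, and a central spindle directs the division of the cytoplasm. Transcripts of most of these genes peak in G2 phase and mitosis, so in RNA from whole cultures fewer cells in these phases and less RNA per cell cannot be told apart.

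Many such genes carry a cell cycle genes homology region (CHR) near the start of transcription, through which the DREAM and B-MYB-MuvB complexes act, and CCAAT boxes bound by NF-Y. Promoter windows from 250 bases before to 50 bases after an annotated start were found in RefSeq (GRCh38.p14) for 37 of the 46 genes. On either strand, TTTGAA or TTCGAA occurred in at least 1 window of 27 of these 37 genes (73.0%), against 15.1% of the 8827 tested genes with a window. CCAAT occurred in 31 of the 37 (83.8%), against 43.6% of the tested genes. Both motifs occurred in 23 (62.2%), against 8.39%, counted over all windows of a gene and so not always in the same window. Within a single window, both were found in 25 of the 47 windows of these genes (53.2%), against 4.73% of the windows of tested genes. Counted by window, a CHR was found in 16.4% and CCAAT in 34.6% of all 35116 windows. These matches describe letters and are not shown to be bound. The windows of the 4 genes with a CHR that had the smallest p between ZCCHC4 KO1 and WT are printed 5′ to 3′ on the strand of the gene, with each CHR match in capitals, since they span both directions of difference described below.
SPC25, chr2:168890381-168890680, minus strand: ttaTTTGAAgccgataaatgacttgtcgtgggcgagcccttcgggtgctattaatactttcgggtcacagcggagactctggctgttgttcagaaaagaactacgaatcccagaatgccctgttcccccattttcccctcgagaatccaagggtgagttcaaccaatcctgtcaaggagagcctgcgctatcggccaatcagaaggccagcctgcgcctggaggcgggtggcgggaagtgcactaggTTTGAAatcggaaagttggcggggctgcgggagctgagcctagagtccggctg
CCNB2, chr15:59104896-59105195, plus strand: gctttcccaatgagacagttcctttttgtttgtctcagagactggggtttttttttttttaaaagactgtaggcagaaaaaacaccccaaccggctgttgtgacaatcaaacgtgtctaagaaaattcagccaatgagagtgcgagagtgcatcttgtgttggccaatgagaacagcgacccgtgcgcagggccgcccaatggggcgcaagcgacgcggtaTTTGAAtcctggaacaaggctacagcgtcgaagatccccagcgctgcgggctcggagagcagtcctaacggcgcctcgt
CDC20, chr1:43358731-43359030, plus strand: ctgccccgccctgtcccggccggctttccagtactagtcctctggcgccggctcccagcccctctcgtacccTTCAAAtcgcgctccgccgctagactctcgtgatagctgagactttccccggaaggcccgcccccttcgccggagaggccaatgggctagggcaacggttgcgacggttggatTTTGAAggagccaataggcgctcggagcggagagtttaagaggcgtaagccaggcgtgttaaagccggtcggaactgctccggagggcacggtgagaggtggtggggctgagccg
PRC1, chr15:90994486-90994785, minus strand: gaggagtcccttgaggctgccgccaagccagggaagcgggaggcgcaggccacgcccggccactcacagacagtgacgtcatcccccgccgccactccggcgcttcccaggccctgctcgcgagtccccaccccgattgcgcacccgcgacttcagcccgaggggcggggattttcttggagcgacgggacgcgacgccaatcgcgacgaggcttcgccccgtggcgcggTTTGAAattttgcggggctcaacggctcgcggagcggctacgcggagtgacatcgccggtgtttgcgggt
In 3 of these windows a TTTGAA lies close to the start, beginning at position -3 in SPC25, -29 in CCNB2 and -20 in PRC1, where -1 is the base before the start. In CDC20 the nearer match begins at -65, and the TTCAAA at -178 is TTTGAA on the other strand. PTTG1, AURKB and CENPE have windows in which no CHR letters were found, and AURKA is among the genes without a window. The median log2 fold change was -0.01 over the 27 genes with a CHR match, of which 12 had higher and 15 lower means in ZCCHC4 KO1, and -0.10 over the 10 genes without one.

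FPKM divides by transcript length but does not adjust for GC content, along which replicates differed, as described below. Levels of different genes are therefore compared only roughly. Mean WT levels spanned from 0.895 FPKM for CENPE, the kinesin of the kinetochore, to 296.6 FPKM for PTTG1, which encodes securin. The median over the 46 genes was 36.2 FPKM against 11.1 FPKM over all 10726 tested genes, and 36 of the 46 lay above the latter. After PTTG1 the highest WT means were those of CDC20 (237.7 FPKM), PLK1 (233.5 FPKM) and UBE2C (196.1 FPKM). The 46 genes together made up 0.604% and 0.563% of the summed FPKM of WT replicates 1 and 2, and 0.476% and 0.550% of that of the knockout replicates. All 46 passed the filter on low values, which asked for an FPKM of at least 1 in at least 2 libraries.

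**Figure D1:**
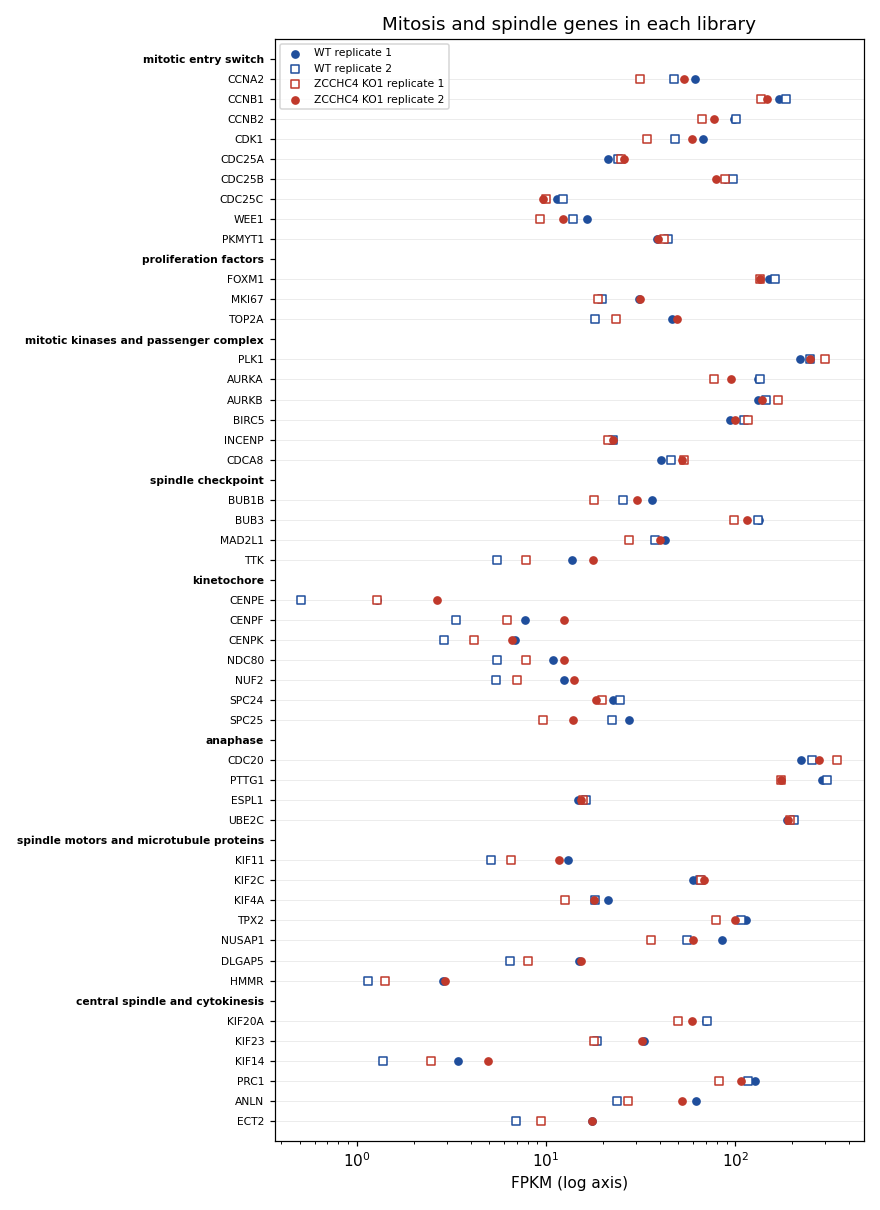
FPKM of the 46 mitosis and spindle genes in each of the 4 libraries, on a log axis and grouped by role, with WT in blue, ZCCHC4 KO1 in red and 1 point per library. Filled circles are WT replicate 1 and ZCCHC4 KO1 replicate 2, and open squares the other libraries. Genes such as TOP2A, TTK and ECT2 split by library within each group, with WT replicate 1 and ZCCHC4 KO1 replicate 2 on the high side, whereas the PTTG1 values of the groups lie apart.

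The replicates of each group differed for these genes, and they did so along the GC content of the transcript. Among the 20 genes with a GC content below 42%, 19 were higher in WT replicate 1 than in WT replicate 2, by a median of 2.30-fold, and all 20 were higher in ZCCHC4 KO1 replicate 2 than in replicate 1, by a median of 1.83-fold. Among the 14 genes with a GC content of at least 50%, 0 were higher in WT replicate 1, and the median ratio of WT replicate 1 to replicate 2 was 0.908. These limits of GC content were chosen after the values were seen. Across the 46 genes, which share the 4 libraries, GC content and the log2 difference of replicate 2 from replicate 1 had a Spearman correlation of 0.805 for WT and of -0.781 for the knockout. Across 10632 tested genes the values were 0.705 and -0.764. TOP2A, the topoisomerase that untangles sister chromatids, shows the pattern with an FPKM of 46.19 and 18.20 in WT and of 23.58 and 49.08 in the knockout. The ratio between replicates exceeded 1.5 in both groups for 16 of the 46 genes.
The median absolute difference between replicates was 0.21 in WT and 0.39 in ZCCHC4 KO1 for the 46 genes on the log2(FPKM + 1) scale, against 0.17 and 0.29 for all tested genes. With the trend on GC content removed from every library, the differences of the 46 genes were 0.16 and 0.27. Transcript length was related to the same differences more weakly, with Spearman correlations of -0.344 in WT and 0.379 in ZCCHC4 KO1.

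**Figure D2:**
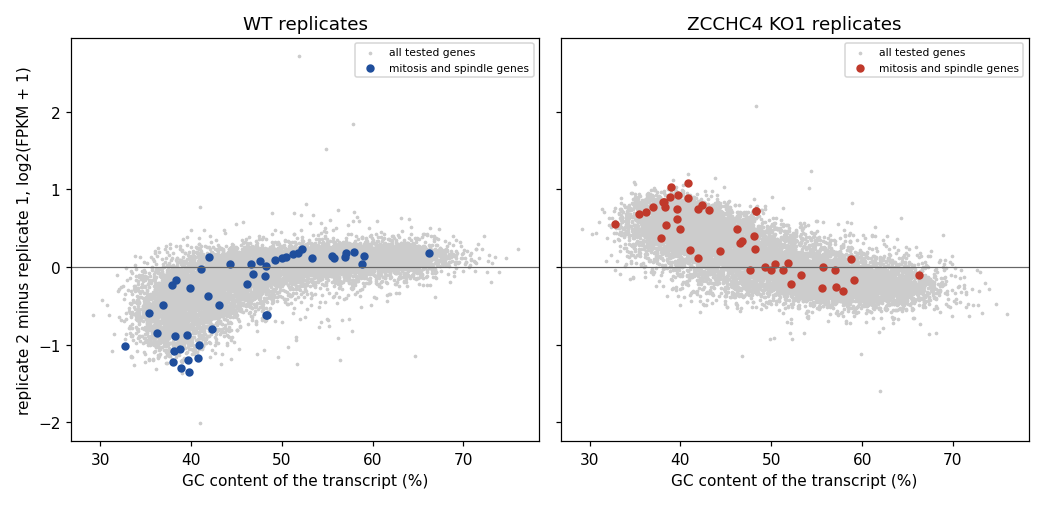
Difference between replicate 2 and replicate 1 on the log2(FPKM + 1) scale against transcript GC content in percent, for WT on the left and ZCCHC4 KO1 on the right. Coloured points are the 46 mitosis and spindle genes and grey points all tested genes with a GC content. Genes of low GC content fall below 0 in WT and above 0 in ZCCHC4 KO1.

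The comparison of ZCCHC4 KO1 with WT cells asks which genes differ between cells with and without ZCCHC4. PTTG1 was the only one of the 46 genes to pass an FDR of 0.05, and it was lower in ZCCHC4 KO1. Thus 1 of 46 genes (2.17%) was lower and 0 were higher at this FDR, where 4.48% of all tested genes were lower and 1.5% were higher. At an unadjusted p under 0.05, 6 were lower and 0 higher, against 13.9% and 8.96% of all tested genes. The study asked for P under 0.05, FDR under 0.001 and a difference of 2-fold or more. With these limits applied to limma, 0 of the 46 were called. Of all tested genes, 0.0559% were called lower, 0.0186% higher and 0.0746% in either direction. The paper does not name the test behind its own list, which was far longer, so these counts are not those of the study. The median log2 fold change was -0.02 over the 46 genes and -0.03 over all tested genes. It moved with single libraries, to -0.33 without WT replicate 2, -0.26 without ZCCHC4 KO1 replicate 2 and 0.01 without ZCCHC4 KO1 replicate 1. Without WT replicate 1 it was -0.05. The count of genes lower at an FDR of 0.05 was 0 without either WT library, 1 without ZCCHC4 KO1 replicate 1 and 9 without ZCCHC4 KO1 replicate 2. In that last fit 9.67% of all tested genes were lower, against 2.55% to 4.21% with one of the other libraries left out.
Both ZCCHC4 KO1 libraries lay below both WT libraries for 14 of the 46 genes (30.4%), where 28.5% of all tested genes did so. They lay above both for 5 genes (10.9%), where 23.1% of all tested genes did so. The groups overlapped for the other 27. For 26 genes the 95% interval of the difference lay within a log2 value of 1 in either direction, and for the remaining 20 it extended past that size.

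**Figure D3:**
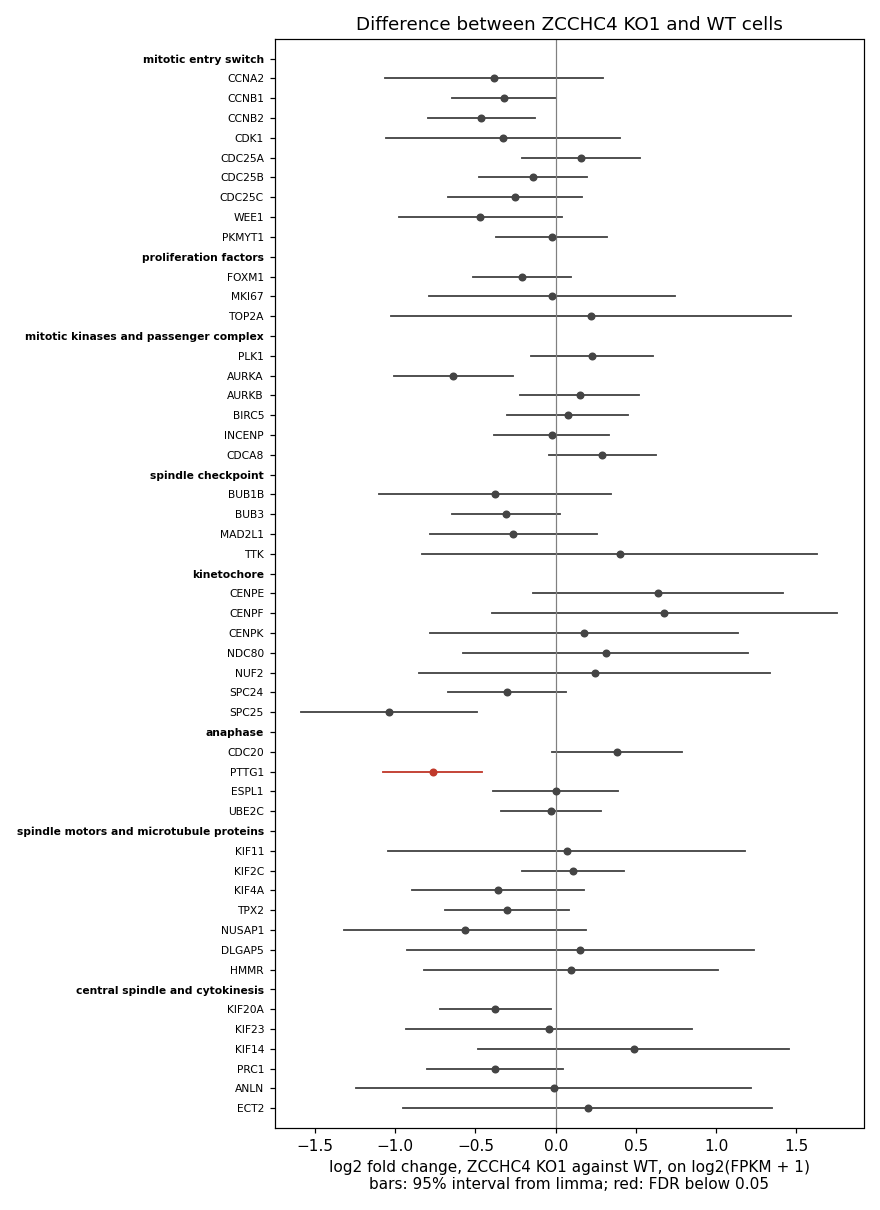
log2 fold change of each of the 46 genes between ZCCHC4 KO1 and WT on the log2(FPKM + 1) scale, grouped by role, with the 95% interval from limma as bars. PTTG1, in red, is the gene with an FDR below 0.05, and the intervals of 40 genes include 0.

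The genes that release sister chromatids at anaphase held the one difference that passed the test. PTTG1 lies on chromosome 5 from 160421855 to 160428744 and encodes securin, the inhibitor of separase. Its FPKM was 287.29 and 305.81 in WT and 174.19 and 173.58 in the knockout, so that all values of one group lay below all values of the other. The means were 296.6 ± 13.1 and 173.9 ± 0.431 FPKM (SD, n = 2 each), a ratio of 0.586. The log2 fold change was -0.77 (standard error 0.125, 95% interval -1.08 to -0.46, adjusted p = 0.0286 from limma). It stayed between -0.81 and -0.69 under all alternatives, but the adjusted p was 0.0976 after median-ratio scaling, 0.0566 without the filter on low values, 0.111 with the replicate number as a block, and 0.176 and 0.251 without WT replicate 1 and WT replicate 2. Of the 20 nearest tested genes, 13 were lower, and the median of the 20 was -0.22, and their part in the result was not tested. Among all 10726 tested genes, 5708 were lower and 5018 higher.
ESPL1, which encodes separase, stood at 14.84 and 16.28 FPKM in WT and at 15.78 and 15.31 FPKM in ZCCHC4 KO1. The groups overlapped, and the 95% interval of the log2 fold change ran from -0.39 to 0.39. CDC20, the activator of the anaphase-promoting complex, was at 221.82 and 253.50 FPKM in WT and at 344.13 and 278.17 FPKM in ZCCHC4 KO1. Both knockout values were above both WT values (log2 fold change 0.38, standard error 0.163), but the test was not passed (adjusted p = 0.238 from limma). UBE2C, the ubiquitin-conjugating enzyme of the complex, differed by a log2 value of -0.03 (95% interval -0.34 to 0.28).

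At the kinetochore, SPC25, a subunit of the NDC80 complex that binds microtubules, had the largest difference of the 46 genes on the log2(FPKM + 1) scale. This rank depends on the pseudocount. With a pseudocount of 0.1 the log2 fold change was -1.093 for SPC25 and 1.089 for CENPE, which is described below. SPC25 was at 27.39 and 22.46 FPKM in WT and at 9.64 and 13.89 FPKM in ZCCHC4 KO1. The groups did not overlap, and the ratio of the means was 0.472. The log2 fold change was -1.04 (standard error 0.222, 95% interval -1.58 to -0.49), with an adjusted p of 0.0571 from limma. That p was under 0.05 with median-ratio scaling (0.00949), the GC trend removed (0.00283), the replicate number as a block (0.0458) and ZCCHC4 KO1 replicate 2 left out (0.00315). It was 0.114 without the filter on low values, 0.265 and 0.0597 without WT replicates 1 and 2, and 0.0639 when ZCCHC4 KO1 replicate 1 was left out. Of the 20 tested genes nearest to SPC25 on chromosome 2, 16 were lower, and the median of the 20 was -0.45 on the log2 scale, and their part in the result was not tested.
The other subunits of that complex had different values. SPC24, the direct partner of SPC25, was at 22.73 and 24.69 FPKM in WT and at 19.74 and 18.29 FPKM in ZCCHC4 KO1, without overlap (log2 fold change -0.30, adjusted p = 0.300 from limma). NDC80 was at 10.91 and 5.50 FPKM in WT and at 7.82 and 12.52 FPKM in ZCCHC4 KO1, and NUF2 at 12.39 and 5.45 FPKM and at 7.04 and 14.04 FPKM. For both the groups overlapped and the replicates differed by more than the group means, so the subunits cannot be ranked by their difference.
CENPE was at 1.28 and 0.51 FPKM in WT and at 1.28 and 2.66 FPKM in ZCCHC4 KO1, so the lower knockout value equalled the higher WT value. CENPF, a large outer kinetochore protein, was at 7.74 and 3.36 FPKM in WT and at 6.24 and 12.47 FPKM in ZCCHC4 KO1. Their log2 fold changes, 0.64 (95% interval -0.14 to 1.42) and 0.68 (95% interval -0.40 to 1.75), were the highest of the 46 genes on the log2(FPKM + 1) scale. Neither passed the test (adjusted p = 0.301 and 0.428 from limma). CENPE lay near the filter limit of 1 FPKM, below it in WT replicate 2, and would not have passed that filter on the WT libraries alone. The ratio of its means was 2.20. With a pseudocount of 0.1 its log2 fold change was 1.089, against 0.777 for CENPF. CENPK, also of the kinetochore, was at 0.18 with an interval from -0.79 to 1.14. Of the 7 kinetochore genes, 5 had higher and 2 lower means on the log2 scale, where 5018 of all 10726 tested genes were higher and 5708 lower.

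Among the mitotic kinases and the chromosomal passenger complex, AURKA had the clearest separation. AURKA, the kinase of spindle poles, was at 131.85 and 135.63 FPKM in WT and at 76.97 and 95.24 FPKM in ZCCHC4 KO1. The groups did not overlap and the ratio of the means was 0.644. The log2 fold change was -0.64 (standard error 0.150, 95% interval -1.01 to -0.27, adjusted p = 0.0708 from limma). The adjusted p was 0.0151 with the GC trend removed and 0.00988 without ZCCHC4 KO1 replicate 2, but 0.156 with median-ratio scaling, 0.117 without the filter, 0.216 with the replicate block, and 0.338 and 0.356 without WT replicates 1 and 2. Of the 20 nearest tested genes on chromosome 20, 14 were lower, with a median of -0.29.
AURKB, the kinase of the passenger complex, was at 131.56 and 145.00 FPKM in WT and at 168.48 and 139.33 FPKM in ZCCHC4 KO1, with overlap (log2 fold change 0.15, 95% interval -0.22 to 0.52). The other passenger subunits had log2 fold changes of 0.08 for BIRC5, which encodes survivin, -0.03 for INCENP and 0.29 for CDCA8, which encodes borealin. Both CDCA8 values in ZCCHC4 KO1, 53.85 and 52.42 FPKM, were above the WT values of 40.78 and 45.92 FPKM (adjusted p = 0.276 from limma). PLK1, the Polo-like kinase, was at 218.90 and 248.02 FPKM in WT and at 297.68 and 248.91 FPKM in ZCCHC4 KO1, where the lower knockout value exceeded the higher WT value by less than 1 FPKM (log2 fold change 0.22, adjusted p = 0.461 from limma).

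Of the 9 genes of the mitotic entry switch, 8 had lower means in ZCCHC4 KO1 and 0 passed an FDR of 0.05, with a median log2 fold change of -0.32. Among all 10726 tested genes, 5708 were lower and 5018 higher in mean on the log2 scale. The entry switch is the one among the 8 roles with the lowest median, and no test compared the roles. CCNB2, a B-type cyclin, was at 98.07 and 100.60 FPKM in WT and at 66.64 and 77.25 FPKM in ZCCHC4 KO1, without overlap (log2 fold change -0.46, standard error 0.136, 95% interval -0.80 to -0.13, adjusted p = 0.114 from limma). CCNB1, the main mitotic cyclin, was at 169.90 and 185.69 FPKM in WT and at 136.23 and 147.76 FPKM in ZCCHC4 KO1, also without overlap (log2 fold change -0.32, standard error 0.130, adjusted p = 0.218 from limma). With the GC trend removed, the adjusted p was 0.0364 for CCNB2 and 0.293 for CCNB1. For CCNB2 it was 0.349 with median-ratio scaling, 0.518 with the replicate block and from 0.039 to 0.627 with a library left out.
CDK1, their catalytic partner, was at 67.53 and 47.93 FPKM in WT and at 34.38 and 59.24 FPKM in ZCCHC4 KO1. The knockout values lay on either side of WT replicate 2, and the 95% interval ran from -1.05 to 0.40. WEE1, the kinase that restrains CDK1, was at 16.54 and 13.89 FPKM in WT and at 9.25 and 12.30 FPKM in ZCCHC4 KO1, without overlap (log2 fold change -0.47, adjusted p = 0.252 from limma, 0.0452 with the GC trend removed, 0.734 with the replicate block and 0.337 after median-ratio scaling). The related kinase PKMYT1 had a log2 fold change of -0.02, and CCNA2, which encodes cyclin A, of -0.38 with overlapping groups.
The CDC25 phosphatases had log2 fold changes of 0.16 for CDC25A, -0.14 for CDC25B and -0.25 for CDC25C, and the 95% intervals of all 3 include 0. CDC25A in ZCCHC4 KO1, at 24.85 and 25.86 FPKM, was above WT at 21.27 and 24.13 FPKM, while CDC25C at 9.96 and 9.63 FPKM was below WT at 11.50 and 12.23 FPKM.

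General markers of proliferating cells did not pass the test. MKI67, which encodes the Ki-67 antigen of dividing cells, was at 30.89 and 19.84 FPKM in WT and at 18.82 and 31.56 FPKM in ZCCHC4 KO1. The group means, 25.4 ± 7.81 and 25.2 ± 9.01 FPKM (SD, n = 2 each), differed by far less than the replicates, and the 95% interval of the log2 fold change ran from -0.79 to 0.74. For TOP2A the interval ran from -1.02 to 1.47, so a 2-fold difference in either direction is not excluded. FOXM1, the transcription factor of G2 phase, was at 150.18 and 162.84 FPKM in WT and at 134.91 and 135.19 FPKM in ZCCHC4 KO1. Both knockout values were lower (log2 fold change -0.21, 95% interval -0.52 to 0.10, adjusted p = 0.387 from limma).

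The spindle checkpoint genes had log2 fold changes of -0.38 for BUB1B, -0.31 for BUB3, -0.26 for MAD2L1 and 0.40 for TTK, and 0 of the 4 passed the test. BUB1B, which encodes the checkpoint protein BUBR1, was at 36.48 and 25.68 FPKM in WT and at 17.84 and 30.40 FPKM in ZCCHC4 KO1. MAD2L1, the inhibitor of CDC20, was at 42.56 and 37.67 FPKM in WT and at 27.40 and 40.19 FPKM in ZCCHC4 KO1. In both the groups overlapped, with ZCCHC4 KO1 replicate 2 inside the WT range. BUB3 alone of the 4 had groups that did not overlap, at 134.01 and 131.28 FPKM in WT and at 98.82 and 115.46 FPKM in ZCCHC4 KO1 (adjusted p = 0.252 from limma). That share, 25% lower, is near the 28.5% of all tested genes that were lower without overlap, and 23.1% were higher. TTK, the kinase that starts checkpoint signalling, had the widest interval of the 4, from -0.83 to 1.63.

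Among the spindle motors and microtubule proteins, log2 fold changes ran from -0.57 to 0.15, and 0 of 7 passed the test. KIF11, the motor that pushes spindle poles apart, was at 13.08 and 5.15 FPKM in WT and at 6.52 and 11.65 FPKM in ZCCHC4 KO1, so that the replicates of each group were farther apart than the groups (95% interval -1.04 to 1.18). TPX2, which activates AURKA on the spindle, was at 113.69 and 107.06 FPKM in WT and at 79.39 and 100.21 FPKM in ZCCHC4 KO1, without overlap (log2 fold change -0.30, adjusted p = 0.320 from limma). NUSAP1, a microtubule-bundling protein, had the lowest value of this group at -0.57, with overlapping libraries and an interval from -1.32 to 0.19. KIF2C, which removes tubulin from microtubule ends, was at 0.11, KIF4A, a chromosome-bound kinesin, at -0.36, and the microtubule-associated proteins DLGAP5 and HMMR at 0.15 and 0.10.
Of the 6 genes for the central spindle and cytokinesis, KIF20A and PRC1 (33.3%) were lower without overlap. The share of all tested genes lower without overlap was near that, at 28.5%, and 23.1% were higher. KIF20A, the kinesin that carries the passenger complex to the midzone, was at 70.45 and 71.14 FPKM in WT and at 50.16 and 58.85 FPKM in ZCCHC4 KO1 (log2 fold change -0.38, standard error 0.139, 95% interval -0.72 to -0.03, adjusted p = 0.186 from limma). PRC1, which bundles midzone microtubules, was at 127.50 and 117.26 FPKM in WT and at 81.65 and 107.87 FPKM in ZCCHC4 KO1 (log2 fold change -0.38, adjusted p = 0.264 from limma). KIF23, a motor of the centralspindlin complex, was at -0.04, KIF14, a kinesin of cytokinesis, at 0.49, the ring scaffold ANLN at -0.01 and the RhoA activator ECT2 at 0.20, each with overlapping groups. The interval of ANLN ran from -1.24 to 1.22, as its FPKM was 61.72 and 23.60 in WT and 27.26 and 52.57 in the knockout.

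With the trend on GC content removed, 5 of the 46 genes were lower at an FDR below 0.05 and 0 were higher, where 12.3% of 10632 tested genes were lower and 6.49% higher. The 5 were PTTG1, SPC25, AURKA, CCNB2 and WEE1, with log2 fold changes of -0.74, -0.95, -0.57, -0.37 and -0.42. On these values 16 genes were lower and 10 higher without overlap, where 32.7% and 26.7% of the tested genes were. CENPE, CENPF and KIF14 were among the 10, with log2 fold changes of 0.62, 0.77 and 0.54 and adjusted p of 0.0547, 0.116 and 0.166 from limma. CDC20 was among them as well, at 0.29 with an adjusted p of 0.0564 from limma.

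A second list of 106 mitotic genes, which shares no gene with the 46, showed a similar spread. Of 105 tested, 0 passed an FDR of 0.05 with limma. At an unadjusted p under 0.05, 10 were lower and 4 higher, against 13.9% and 8.96% of all tested genes. The median log2 fold change was -0.04, with 50 genes higher and 55 lower in mean. Groups did not overlap for 24 lower and 11 higher genes (22.9% and 10.5%), against 28.5% and 23.1% of all tested genes. By role, the median was -0.17 over 24 kinetochore and centromere genes, 0.12 over 20 spindle motors and microtubule proteins, 0.09 over 10 checkpoint genes, -0.05 over 8 condensin subunits and -0.06 over 17 genes of the anaphase-promoting complex.
Genes of DNA replication, which act in the preceding S phase, had lower values. Of 46 tested, 5 (10.9%) were lower at an FDR below 0.05 and 0 higher, against 4.48% and 1.5% of all tested genes. The median log2 fold change of the replication genes was -0.50. Both ZCCHC4 KO1 libraries lay below both WT libraries for 32 of the 46 (69.6%) and above for 1. The shares of all tested genes were 28.5% and 23.1%. The 5 genes were MCM6 and MCM4 of the replicative helicase, GINS1 of its accessory complex, the primase subunit PRIM2 and the ribonucleotide reductase subunit RRM2, with log2 fold changes of -1.26, -0.80, -0.95, -0.83 and -0.95 (adjusted p of 0.0263, 0.0378, 0.0319, 0.0431 and 0.0264 from limma). MCM6 was at 42.49 and 39.32 FPKM in WT and at 13.74 and 19.60 FPKM in ZCCHC4 KO1, and RRM2 at 109.38 and 105.07 FPKM and at 49.21 and 61.11 FPKM. The replicates of the replication genes differed by a median of 0.15 in WT and 0.28 in ZCCHC4 KO1 on the log2 scale, less than those of the mitotic genes. Without the filter on low values 0 of the 5 passed (adjusted p from 0.0616 to 0.0769), and with the replicate number as a block GINS1, PRIM2 and MCM4 did not (0.089, 0.138 and 0.0643). MCM4 was also past the limit with median-ratio scaling (0.0519). Without single libraries, the count of replication genes lower at this FDR ran from 1 (without WT replicate 1) to 22 (without ZCCHC4 KO1 replicate 2). The difference between the lists was not tested.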

How the data were processed

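Total RNA of 2 WT and 2 ZCCHC4 KO1 libraries was sequenced. The deposited values are FPKM, which the authors obtained with RSEM after mapping by Bowtie2 on GRCh38; each library has a column, matched to its sample by title. Versions, read filters and the gene annotation are not given in the sources used here. Symbols came from RefSeq (GRCh38.p14) for 16384 of 16658 genes, and GC content and length from the longest GENCODE transcript, for 99.1% of the tested genes. Values were compared as log2(FPKM + 1), which understates changes of low genes, for genes with an FPKM of at least 1 in at least 2 libraries, with limma 3.58.1 in R 4.3.3 (lmFit, eBayes with a trend, Benjamini-Hochberg adjustment over 10726 genes). The code was also run on simulated data with independent errors for each gene. Those data lack the GC trend between replicates, so that run cannot check the p-values given here. No count test was run on FPKM, and precision rests on 2 libraries per group.

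The members, lists, motifs and alternatives were chosen with earlier results of these data known. Values in all libraries are given for members with an FDR below 0.05, the 6 members with the smallest p where fewer pass, a fixed set of members from each main role, and others named after their values were seen. Of the other lists, up to 5 genes in each direction with an FDR below 0.05 are named. Other settings tried were a pseudocount of 0.1, all genes unfiltered, median-ratio scaling, removal of the GC trend (natural spline, 4 degrees of freedom), the replicate number as a block, and leaving out each library. A crossed block was added after the values were seen.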

Additional observations from a re-analysis of the deposited data

How the results depend on the processing

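The 2 libraries per group limit every result, and the FPKM carry no depth, so counting error is unknown. The log2 fold changes of 27 members kept their sign with each library left out in turn, and 19 changed sign. The lowest and highest values of these were -0.7108 and 0.05699 for CDK1, -0.1121 and 0.06349 for PKMYT1, -0.3793 and 0.3369 for MKI67, -0.4276 and 0.8698 for TOP2A, -0.04352 and 0.1944 for BIRC5, -0.07468 and 0.02338 for INCENP, -0.5312 and 0.005185 for MAD2L1, -0.1897 and 0.9857 for TTK, -0.3352 and 0.6869 for CENPK, -0.1252 and 0.7485 for NDC80, -0.2841 and 0.7697 for NUF2, -0.06285 and 0.06268 for ESPL1, -0.08654 and 0.0255 for UBE2C, -0.5297 and 0.6653 for KIF11, -0.3915 and 0.6983 for DLGAP5, -0.3287 and 0.5193 for HMMR, -0.4435 and 0.3617 for KIF23, -0.6888 and 0.6614 for ANLN and -0.4172 and 0.814 for ECT2. The members lower at an FDR below 0.05 numbered 0 without the filter, 5 with the GC trend removed and 0 to 9 with a library left out. With a library left out, 7 to 18 members were higher and 15 to 24 lower without overlap, where 30.8% to 41.8% and 34.4% to 49.8% of all tested genes were, more than with all libraries since 1 library stands against 2, and with the GC trend removed 10 were higher. Of the other mitotic genes, 1 was lower with median-ratio scaling, 6 were lower and 2 higher with the GC trend removed, and 0 to 9 were lower and 0 to 1 higher with a library left out. Of the DNA replication genes, 0 were lower without the filter, 20 with the GC trend removed and 1 to 22 with a library left out. ZCCHC4 had a log2 fold change of -1.923 with a pseudocount of 0.1 (adjusted p = 0.0551), -1.476 without the filter (adjusted p = 0.115) and -1.807 to -1.145 with a library left out. Median-ratio scaling turned 7 members from below to above 0, PKMYT1 to 0.0516, MKI67 to 0.05303, INCENP to 0.04861, ESPL1 to 0.07296, UBE2C to 0.04679, KIF23 to 0.03329 and ANLN to 0.06186, and removal of the GC trend turned MKI67 to 0.02311, KIF23 to 0.06072 and ANLN to 0.06771. Of all tested genes, 1.57% were lower at an FDR below 0.05 without the filter, 6.19% with median-ratio scaling and 12.3% with the GC trend removed. The causes were not tested.

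Replicate numbers come from the sample titles, which do not say whether they pair the libraries. The differences between replicates of WT and of ZCCHC4 KO1 correlated at -0.787 across tested genes. With the replicate number as a block, 1 member was lower at an FDR below 0.05 (SPC25, with PTTG1 no longer called). So were 1 other mitotic gene and 2 DNA replication genes, in a fit that called 3.31% of all tested genes lower. With the numbers crossed, chosen after seeing the data, 17 members were lower and 8 higher, in a fit that called 27.8% of all tested genes lower and 21.5% higher. So were 30 and 26 other mitotic genes and 31 and 2 DNA replication genes. At the thresholds of the study 1 member was lower in that fit, and the share of all tested genes was not computed. The crossed pairing was taken from these same values, so its calls cannot serve as support for a difference.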

Other observations

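The log2 fold changes of the tested genes nearest to further members are given as values, with no test. For ANLN, 14 of the 20 nearest genes were lower and the median of the 20 was -0.48 on the log2 scale, and for PRC1 15 were lower, with a median of -0.28. The medians were -0.23 for HMMR and -0.20 for FOXM1. Other members had medians above 0, with 0.22 for SPC24 (16 of 20 higher) and 0.22 for PKMYT1 (15 of 20 higher). For BIRC5 and ESPL1 the median was 0.19. Of the 20 tested genes nearest to CCNB2, 12 were lower and 8 higher, with a median log2 fold change of -0.04, and for CCNB1 7 were lower and 13 higher, with a median of 0.11. For CDC20 the nearest genes were 10 lower and 10 higher, with a median of 0.03. For TPX2 and UBE2C, which like AURKA lie on chromosome 20, the medians were 0.07 and 0.14. For KIF4A on chromosome X it was -0.02.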
